A study of Homo sapiens with 6 samples.

Results

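The 9 genes described here encode enzymes that make pyrimidine nucleotides and deoxynucleotides: CAD, DHODH, UMPS, CTPS1, CTPS2, TYMS, RRM1, RRM2 and TK1. They were taken by gene name from a table of 35750 genes, and all 9 were found, each as 1 row. RNA was sequenced from T98G, a human glioblastoma cell line grown in DMEM with fetal bovine serum, after capture on oligo(dT) beads. The labels give 3 libraries as shControl and 3 as shSLC1A5, the second group carrying a short hairpin RNA (an RNA that lowers a chosen transcript) against SLC1A5, a sodium-dependent transporter that brings glutamine and other neutral amino acids into the cell. The labels do not give the hairpin sequences, how many hairpins or clones were used, the time after their delivery, or whether replicates were grown apart. The p-values below set differences between the groups only against the scatter among these libraries, and that scatter may be technical.

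Pyrimidine synthesis starts in the cytosol with CAD, a single large protein whose carbamoyl phosphate synthetase takes nitrogen from glutamine and whose other domains build the ring. DHODH, in the inner mitochondrial membrane, oxidises dihydroorotate to orotate, and UMPS turns orotate into UMP. CTPS1 and CTPS2 convert UTP to CTP with a further nitrogen from glutamine, so CAD, CTPS1 and CTPS2 are the glutamine-using steps. Ribonucleotide reductase, made of the large subunit RRM1 and the small subunit RRM2, turns ribonucleotides into deoxynucleotides. TYMS methylates dUMP to dTMP for DNA synthesis, and TK1 makes dTMP from salvaged thymidine. TYMS, RRM1, RRM2 and TK1 are known as genes expressed mainly around S phase, when DNA is copied.

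RefSeq start-site windows on GRCh38.p14 were matched for all 9 genes, 13 windows in all. Sequence before the start is shown for TK1, the only gene of the 9 that passed the main test (edgeR, without the correction explained below). It is also shown for CAD, the glutamine-using first step, and for RRM1, an S phase enzyme that did not pass that test. Capitals mark matches on either strand to GGGCGG (GC box) and to CCAAT, and the sequences run in the direction of transcription.
TK1, chr17:78187234-78187454, minus strand, without the 29 bases next to the start that lie in an annotated exon: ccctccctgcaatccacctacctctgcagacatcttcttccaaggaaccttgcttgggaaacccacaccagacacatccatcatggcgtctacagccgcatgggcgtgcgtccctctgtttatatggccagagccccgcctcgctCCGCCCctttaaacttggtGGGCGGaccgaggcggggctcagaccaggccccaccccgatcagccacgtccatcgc
CAD, chr2:27217119-27217368, plus strand: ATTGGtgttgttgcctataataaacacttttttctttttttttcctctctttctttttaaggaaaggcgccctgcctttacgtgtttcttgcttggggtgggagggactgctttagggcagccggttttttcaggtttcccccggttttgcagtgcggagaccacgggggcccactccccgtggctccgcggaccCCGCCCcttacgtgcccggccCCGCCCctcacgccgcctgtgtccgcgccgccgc
RRM1, chr11:4094435-4094684, plus strand: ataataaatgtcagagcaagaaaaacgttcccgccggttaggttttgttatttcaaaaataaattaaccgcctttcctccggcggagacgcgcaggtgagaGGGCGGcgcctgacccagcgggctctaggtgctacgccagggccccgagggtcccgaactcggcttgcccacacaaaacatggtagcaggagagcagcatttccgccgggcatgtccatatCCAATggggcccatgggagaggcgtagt

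In the 250 bases before each start, 7 of the 9 genes had a GC box in at least 1 window. Of all 35116 RefSeq windows of that length, 42.6% held a GC box. Here and below the shares are per window, while CTPS1, CTPS2, RRM2 and TK1 had 2 windows each in which to match. Counts of genes and shares of windows are therefore unlike measures. CCAAT was found for 5 genes, against 32.0% of windows, with 3 copies before 1 of the RRM2 starts and 2 inverted copies before the second TK1 start, 77 and 46 bases upstream. The E2F motif, searched as TTTCCCGC, TTTGGCGC, TTTCGCGC or TTTGCCGC on both strands, was found for TYMS alone among the 9, against 2.79% of windows, and is shown in capitals within its 30 bases.
TYMS, chr18:657603-657632, plus strand: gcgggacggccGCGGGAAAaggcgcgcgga
The motif CACGTG was found for DHODH alone, against 6.34% of windows. No match of one motif overlapped a match of another, though GC boxes of DHODH and of CTPS1 share bases among themselves, and a match is a string of letters, not a measured binding site.

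Total counts ran from 59327548 to 70802167 per library, and the 11841 genes whose FPKM (sequenced fragments scaled to gene length and library size) averaged 1 or more were tested, the 9 enzymes among them. SLC1A5 itself fell little, from 95.8 ± 1.15 FPKM in shControl to 87.9 ± 0.407 in shSLC1A5 (SD, n = 3), a log2 fold change of -0.14 (edgeR adjusted p = 1.93e-04), or -0.34 with the GC-and-length correction, a fit that removes each library's trend of expression with the GC content and length of the transcript. Every direction here is therefore that of the libraries labelled shSLC1A5. Of the glioblastoma line markers, VIM, CD44 and EGFR were abundant, while NES, SOX2, GFAP, OLIG2 and S100B were below the expression minimum. Summed FPKM of 6 neutrophil markers was 0.0063 to 0.235 in shControl and 53.5, 0.272 and 0.515 in shSLC1A5 replicates 1, 2 and 3. That of 6 B cell markers was 1.52 to 1.74 in shControl and 4.72 to 7.08 in shSLC1A5. In shControl nearly all of the B cell sum was CD22 (1.49, 1.66 and 1.62), which was lower in shSLC1A5 (1.26, 1.44 and 1.22). Most of the B cell sum in shSLC1A5 was IGHM, at 4.86, 2.66 and 4.89. In all 3 shControl libraries the neutrophil markers FCGR3B, CXCR2 and MPO and the B cell markers MS4A1 and IGHM were at 0. The 4 red cell markers, the 4 T cell markers and the leukocyte marker PTPRC summed to at most 0.0667, 0.0567 and 0.0159 FPKM in shControl. In shSLC1A5 these sums were 0.0783 to 4.73, 0.140 to 0.288 and 0.0253 to 0.497, each highest in replicate 1. Nearly all of the red cell sum of 4.73 was ALAS2 (4.71), with the globins HBA1 and HBA2 at 0 in that library. In shSLC1A5 replicate 2 HBA1 and HBA2 were at 0.128 and 0.169. Most of the T cell sum in shSLC1A5 was TRAC (0.288, 0.184 and 0.107), and CD3E was at 0 in every library. The part of these transcripts in the results was not tested. Calls of the named genes and counts of the lists that change without shSLC1A5 replicate 1 are given. IGHM and MS4A1 were present in all 3 shSLC1A5 libraries, MS4A1 at 168, 90 and 102 counts. Leaving out replicate 1 therefore does not remove the B cell transcripts.

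TK1 rose in the libraries labelled shSLC1A5, and the other 8 enzymes did not pass the test. Thus 1 of the 9 was called by edgeR (quasi-likelihood test, Benjamini-Hochberg adjusted p under 0.05 over all genes tested), against 39.2% of the 11841 genes. By direction 1 of the 9 was higher, against 20.2% of genes, and 0 were lower, against 19.0%. DESeq2 also called 1 of the 9, against 42.2% of genes, and 4 had an unadjusted edgeR p under 0.05. The 3 glutamine-using steps had log2 fold changes of -0.058, -0.068 and -0.17, all below 0, and none was called. FPKM did not overlap between the groups for 6 of the 9 enzymes, against 49.6% of genes tested, but apart from TK1 the gaps were small.

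**Figure D1:**
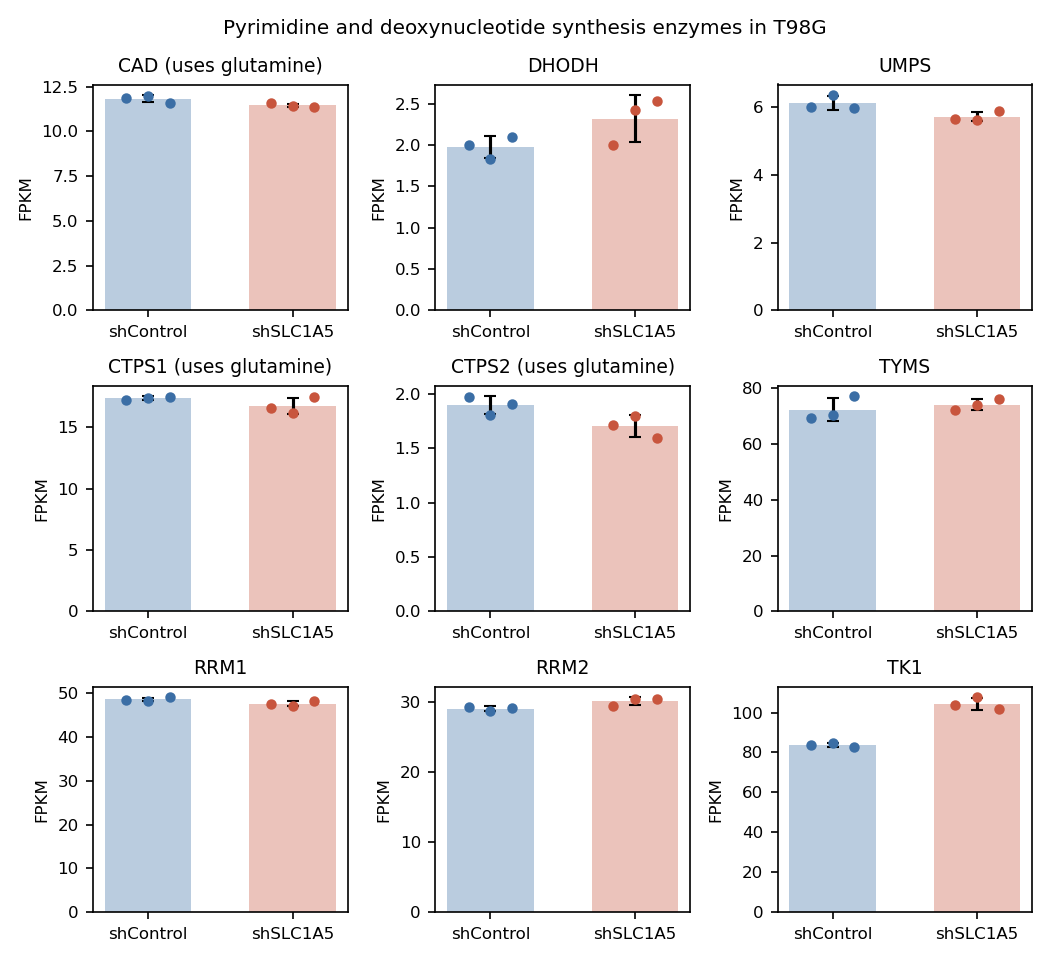
FPKM of each of the 9 enzymes (vertical axes, starting at 0) in the 3 shControl and 3 shSLC1A5 libraries; points are libraries, bars are means and error bars are SD. TK1 lies at 82.9 to 84.9 in shControl and 102 to 108 in shSLC1A5, while the other panels differ little between groups.

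Levels spanned a wide range. Averaged over the 6 libraries, TK1 was at 94.1 FPKM and TYMS at 73.3, followed by RRM1 at 48.0, RRM2 at 29.6, CTPS1 at 17.0, CAD at 11.6, UMPS at 5.92, DHODH at 2.14 and CTPS2 at 1.80. TK1 stood above 97.3% of the genes tested and CTPS2 above 14.0%. Neighbours in this order did not overlap in any library, except DHODH and CTPS2, whose libraries did overlap. TK1 was 52.3 times as high as CTPS2, and the deoxynucleotide enzymes TYMS, RRM1, RRM2 and TK1 all lay above the 5 enzymes of UMP and CTP synthesis.

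The order among the highest genes depends on the length used. Counts and FPKM together imply a gene model of 10293 bases for RRM2, 2.80 times its longest GENCODE 29 transcript of 3673 bases, where the median ratio over genes tested was 1.45 and 4.35% of genes had a higher one. The deposited RRM2 model (chromosome 2, 10120698 to 10210597, plus strand) runs far past the GENCODE 29 end of 10131419. On the same strand it overlaps the lincRNA gene C2orf48 and the protein-coding gene AC007240.1 (10122739 to 10199288). In counts scaled to the library total and to each kilobase of the longest transcript (CPM per kilobase), RRM2 was at 81.5 ± 1.21 and RRM1 at 72.8 ± 0.510 in shControl (SD, n = 3), so RRM2 stood above RRM1, and TYMS, at 118.5 ± 6.47, stood above TK1, at 103.4 ± 1.34. In shSLC1A5 the order of this pair on the same scale was the opposite, with TK1 at 128.8 ± 3.62 and TYMS at 121.4 ± 2.92. This scale was added after seeing the data. Whether the RRM2 counts hold reads of C2orf48, whose length this scale leaves out, or of AC007240.1 was not tested.

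**Figure D2:**
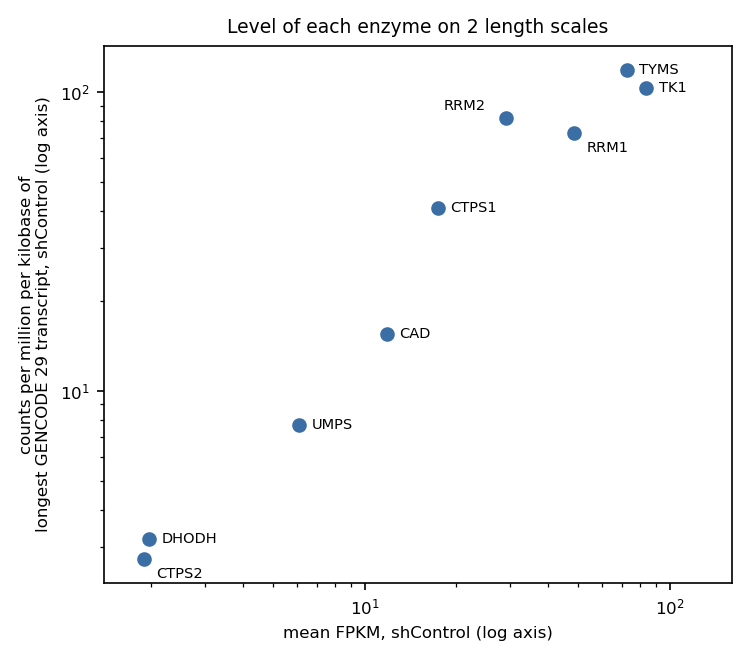
Mean level of each enzyme in shControl as deposited FPKM (horizontal, log axis) and as CPM per kilobase of the longest GENCODE 29 transcript (vertical, log axis); each point is the mean of 3 libraries. RRM2 lies to the left of RRM1, at 29.1 against 48.4 FPKM, but above it, at 81.5 against 72.8.

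CAD (ENSG00000084774, chromosome 2, 27217369 to 27243943, plus strand; GRCh38) is the glutamine-using entry to the pathway. Its FPKM was 11.9, 12.0 and 11.6 in shControl and 11.6, 11.4 and 11.4 in shSLC1A5. All 3 shSLC1A5 values were lower, and the gap between the groups was smaller than the spread within shControl. The log2 fold change was -0.058 (SE 0.031, edgeR adjusted p = 0.158), with a 95% interval of -0.13 to 0.0094, or a change in level of -8.33% to 0.651%. With the GC-and-length correction CAD fell by 0.21 on the log2 scale (SE 0.029, edgeR adjusted p = 2.59e-04).

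CTPS1 (ENSG00000171793, chromosome 1, 40979688 to 41012565, plus strand), the more abundant CTP synthase, was at 17.2, 17.4 and 17.5 FPKM in shControl and 16.5, 16.1 and 17.4 in shSLC1A5. The groups overlapped through shSLC1A5 replicate 3. Its log2 fold change was -0.068 (SE 0.029, 95% interval -0.13 to -0.0049 before adjustment, edgeR adjusted p = 0.0831). It passed the test without shSLC1A5 replicate 3, at -0.096 (edgeR adjusted p = 0.0256), and was at -0.011 (adjusted p = 0.814) with the GC-and-length correction.

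CTPS2 (ENSG00000047230, chromosome X, 16587999 to 16712669, minus strand), the second CTP synthase, was at 1.97, 1.80 and 1.91 FPKM in shControl and 1.72, 1.79 and 1.60 in shSLC1A5, from 665 to 781 counts per library. The groups just failed to overlap. Its log2 fold change was -0.17 (SE 0.096, edgeR adjusted p = 0.198), and the 95% interval ran from -0.38 to 0.046, or a change in level of -23.1% to 3.24%. CTPS1 stood at 8.72, 9.63 and 9.15 times the FPKM of CTPS2 in shControl and at 9.64, 9.0 and 10.9 times in shSLC1A5. These ratios overlapped (difference of log2 ratios 0.099, exact two-sided permutation p = 0.4, or 0.533 after Benjamini-Hochberg adjustment over 4 ratios). The difference was 0.064 without shControl replicate 1, 0.16 without shSLC1A5 replicate 2 and 0.023 without shSLC1A5 replicate 3. With 3 libraries against 3 the smallest p this test can give is 0.1.

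The steps between CAD and CTP went in both directions without a call. DHODH (ENSG00000102967, chromosome 16, 72008588 to 72027664, plus strand) was at 2.00, 1.83 and 2.09 FPKM in shControl and 1.99, 2.42 and 2.54 in shSLC1A5. Replicates 2 and 3 of shSLC1A5 lay above shControl and replicate 1 lay within it. The log2 fold change was 0.22 (SE 0.097, 95% interval 0.0015 to 0.43 before adjustment, edgeR adjusted p = 0.103). Without shSLC1A5 replicate 1, the library with the most neutrophil transcripts, DHODH passed the test at 0.31 (edgeR adjusted p = 0.0295).

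UMPS (ENSG00000114491, chromosome 3, 124730433 to 124749273, plus strand) was at 6.02, 6.36 and 5.97 FPKM in shControl and 5.66, 5.63 and 5.88 in shSLC1A5. All 3 shSLC1A5 libraries were lower. The log2 fold change of -0.11 (SE 0.041, 95% interval -0.20 to -0.018 before adjustment) had an edgeR adjusted p of 0.0565. It passed without shControl replicate 3, at -0.13 (edgeR adjusted p = 0.0435).

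TK1 (ENSG00000167900, chromosome 17, 78174091 to 78187233, minus strand), the S phase thymidine kinase, was at 83.6, 84.9 and 82.9 FPKM in shControl and 104, 108 and 102 in shSLC1A5. The lowest shSLC1A5 library was well above the highest shControl library. The log2 fold change was 0.30 (SE 0.026, edgeR adjusted p = 6.71e-06), 23.5% higher with a 95% interval of 18.8% to 28.5%, and it stayed between 0.29 and 0.33 when any single library was left out, with 0.30 (edgeR adjusted p = 8.78e-05) without shSLC1A5 replicate 1. With the GC-and-length correction the rise was 0.088 (SE 0.023, edgeR adjusted p = 0.0177), or 6.30%. Its mitochondrial counterpart TK2 rose as well, from 1.92 ± 0.0958 to 2.41 ± 0.103 FPKM (SD, n = 3; log2 fold change 0.31, edgeR adjusted p = 0.00597). The ratio of TK1 to TK2 therefore overlapped between groups, at 45.3, 44.8 and 40.8 in shControl and 45.2, 44.5 and 40.6 in shSLC1A5 (difference of log2 ratios -0.0068, exact permutation p = 0.7, 0.7 after adjustment over 4 ratios). With the correction that difference was -0.20 (exact permutation p = 0.1, the smallest this test can give).

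TYMS (ENSG00000176890, chromosome 18, 657653 to 673578, plus strand), thymidylate synthase, was at 69.4, 70.5 and 77.2 FPKM in shControl and 72.1, 74.1 and 76.3 in shSLC1A5. The highest library was shControl replicate 3, and the groups overlapped throughout. Its log2 fold change of 0.023 (SE 0.036) had an edgeR adjusted p of 0.650 and a 95% interval of -0.057 to 0.10, or a change in level of -3.89% to 7.44%. TYMS overlaps ENOSF1 and TYMSOS on the opposite strand, with mean counts of 1448 and 87.7, and since the strand setting is not given in the sources used here their reads cannot be told apart where they overlap.

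RRM1 (ENSG00000167325, chromosome 11, 4094707 to 4138875, plus strand), the large subunit of ribonucleotide reductase, was at 48.2, 48.2 and 48.9 FPKM in shControl and 47.4, 46.9 and 48.2 in shSLC1A5. The lowest shControl and highest shSLC1A5 libraries met at 48.2. Its log2 fold change was -0.041 (SE 0.021, 95% interval -0.088 to 0.0061, edgeR adjusted p = 0.154), and 0.027 (adjusted p = 0.345) with the GC-and-length correction.

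RRM2 (ENSG00000171848), the small subunit that supplies the radical, was at 29.4, 28.7 and 29.2 FPKM in shControl and 29.5, 30.5 and 30.4 in shSLC1A5. All 3 shSLC1A5 libraries were higher, replicate 1 only just. The log2 fold change was 0.039 (SE 0.021, 95% interval -0.0072 to 0.084, edgeR adjusted p = 0.167), and RRM2 rose by 0.089 (SE 0.020, edgeR adjusted p = 0.00699) with the GC-and-length correction. The ratio of RRM2 to RRM1 was 0.609, 0.595 and 0.597 in shControl and 0.622, 0.651 and 0.632 in shSLC1A5. The groups did not overlap, with a difference of log2 ratios of 0.080 (exact permutation p = 0.1, 0.2 after adjustment over 4 ratios). Relative to RRM2B, the small subunit that p53 can induce, RRM2 was at 3.69, 3.31 and 3.55 in shControl and 3.71, 3.95 and 3.71 in shSLC1A5 (difference of log2 ratios 0.11, exact permutation p = 0.1, 0.2 after adjustment). The difference was 0.066 without shControl replicate 2. With the correction the RRM2 to RRM2B difference was 0.078 (exact permutation p = 0.3) and the RRM2 to RRM1 difference 0.061 (exact permutation p = 0.1). The exact test cannot go below 0.1, so neither ratio could pass at this number of libraries.

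**Figure D3:**
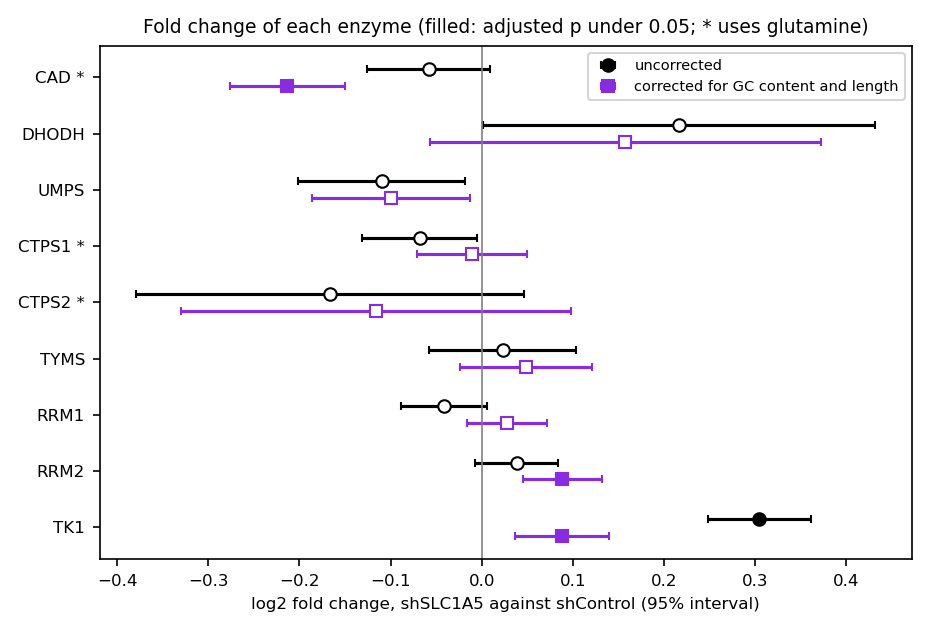
Log2 fold change of each enzyme, shSLC1A5 against shControl, with its 95% interval, uncorrected (circles) and corrected for GC content and length (squares); filled symbols have an adjusted p under 0.05 and asterisks mark the glutamine-using steps. TK1 moves from 0.30 to 0.088 with the correction, CAD from -0.058 to -0.21, and RRM2 from 0.039 to 0.089.

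With the correction CAD and RRM2 gained a call and the TK1 rise shrank. Across the 11800 genes with a known GC content, GC-rich transcripts had higher fold changes (Spearman rho 0.49, and 0.013 once corrected, a description over genes that share the 6 libraries). In the highest decile of GC content the median log2 fold change was 0.28, and in the lowest it was -0.078. The longest TK1 transcript is 62.8% GC, above 93.5% of genes tested, and that of CAD is 57.7%, above 80.3%. The other 7 enzymes lie between 43.2% (CTPS1) and 53.1% (DHODH). With the correction 3 of the 9 enzymes were called, CAD lower and RRM2 and TK1 higher, against 26.3% of genes tested, 11.6% higher and 14.7% lower, and the 3 glutamine-using steps were at -0.21, -0.011 and -0.12. Whether the GC trend arose in the cells or in library preparation was not tested.

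**Figure D4:**
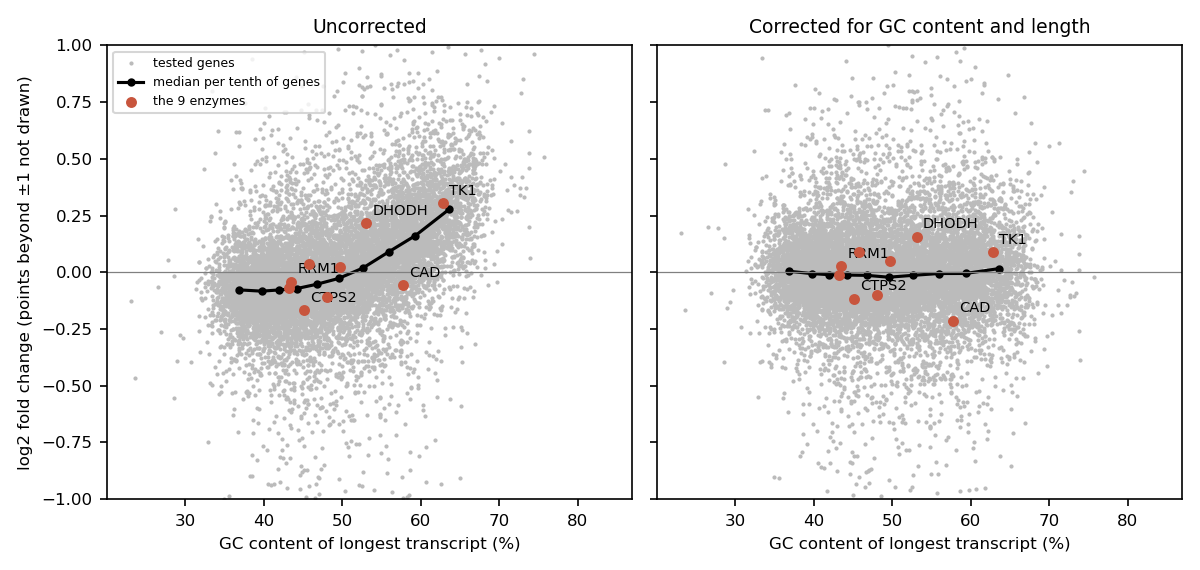
Log2 fold change against GC content (percent) of the longest transcript for tested genes (grey), the median per GC decile (black line) and the 9 enzymes (red), before (left) and after (right) the correction. On the left the median is -0.078 in the lowest decile and 0.28 in the highest, and TK1 lies close to the line while CAD lies below it; on the right the line is near 0.

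Among 55 other genes in 6 lists of neighbouring steps, 51 were tested, 23 rose and 8 fell (31 called, 60.8%, against 39.2% of all genes tested), with a median log2 fold change of 0.079 against -0.0057 over all genes tested. Without shSLC1A5 replicate 1, 19 rose and 7 fell (26 called, 51.0%, against 33.5% of all genes). Of the 9 enzymes 1 rose and 0 fell, with a median of -0.041. With the correction 17 of the 51 rose and 8 fell (49.0% called, against 26.3% of all genes, median 0.035), and 2 of the 9 rose and 1 fell (median 0.027).

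Of 7 other enzymes that take nitrogen from glutamine, 2 rose and 3 fell, with a median log2 fold change of -0.0015. ASNS, which makes asparagine, fell from 25.7 ± 0.758 to 13.2 ± 0.424 FPKM (SD, n = 3), or by 0.98 on the log2 scale (SE 0.035, edgeR adjusted p = 1.12e-08). GFPT2 and GFPT1, which start hexosamine synthesis, fell by 0.39 and 0.33. PFAS, of purine synthesis, rose by 0.17 (edgeR adjusted p = 0.00485), but was at 0.00082 (adjusted p = 0.989) after the correction. PPAT, the purine entry enzyme and the remaining gene called, named after its values were seen, rose by 0.14 and by 0.23 after the correction. Uncorrected, PPAT missed the threshold when shControl 1, shControl 3, shSLC1A5 1 or shSLC1A5 2 was dropped (edgeR adjusted p = 0.0783, 0.0541, 0.0837 and 0.0686), and 1 of the 7 enzymes then rose without shSLC1A5 replicate 1.

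In pyrimidine salvage and nucleoside transport 4 of 8 tested genes rose and 0 fell, with a median of 0.19, and 4 rose after the correction as well. Without shSLC1A5 replicate 1, 5 rose. UCKL1 and UCK1, a uridine kinase-like protein and a uridine-cytidine kinase, rose by 0.41 and 0.26, or 0.21 and 0.14 after the correction, where UCK1 lost its call (edgeR adjusted p = 0.0645). UPP1, uridine phosphorylase, rose from 7.97 ± 0.0870 to 9.08 ± 0.192 FPKM (SD, n = 3; log2 fold change 0.17, edgeR adjusted p = 0.00508), and by 0.21 after the correction. The listed genes CDA and SLC29A2 were below the expression minimum.

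Among nucleotide kinases and enzymes of dUMP supply, 2 of 7 rose and 1 fell (median -0.036). DUT, which turns dUTP into dUMP, the substrate of TYMS, rose by 0.15, and by 0.21 after the correction, but missed the threshold without shControl replicate 1 (0.12, edgeR adjusted p = 0.0672). CMPK2, a mitochondrial UMP-CMP kinase, fell by 0.17. NME2 rose by 0.077 and was at -0.087 after the correction, where it was called in the other direction (edgeR adjusted p = 0.0232). The readthrough gene NME1-NME2, which holds the NME2 sequence, was at 15.6 ± 14.7 FPKM in shControl and 25.9 ± 3.23 in shSLC1A5 (SD, n = 3), so the split of reads between them, and with it the NME2 value, is uncertain. Without shControl replicate 1 or shSLC1A5 replicate 1 the call of NME2 was lost (edgeR adjusted p = 0.0510 and 0.0869).

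Genes of deoxynucleotide balance and the thymidylate cycle went both ways, with 2 of 6 higher and 2 lower (median -0.070). Among the 59 other enzymes and listed genes compared, E2F1 and MCM2 were among the closest to TK1 in pattern, with root mean square differences of 0.042 and 0.047 in log2 FPKM centred on each gene's mean over 6 libraries. By the same measure the nearest gene was FEN1 to RRM1 (0.012), MTHFD1 to CAD (0.013), NADSYN1 to RRM2 (0.019) and RRM1 to CTPS1 (0.026). All these distances used uncorrected FPKM. With the GC-and-length correction TK1, E2F1 and MCM2 had log2 fold changes of 0.088, 0.043 and 0.21. SHMT1, the cytosolic serine hydroxymethyltransferase that feeds this cycle, rose by 0.22, while SHMT2, its mitochondrial form, fell by 0.23. SAMHD1, which breaks down deoxynucleotides, fell by 0.12, and was at -0.074 (edgeR adjusted p = 0.0864) after the correction.

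In pyrimidine breakdown and nucleotidases 2 of 5 tested genes rose and 1 fell (median -3.2e-04). NT5E, the surface nucleotidase CD73, fell from 50.5 ± 1.80 to 33.1 ± 0.798 FPKM (SD, n = 3), or by 0.62 on the log2 scale (SE 0.030, edgeR adjusted p = 1.18e-07). The deoxynucleotidases NT5M and NT5C rose by 0.63 and 0.31, and were at 0.36 (edgeR adjusted p = 0.170) and 0.012 (adjusted p = 0.928) after the correction. NT5M missed the threshold when shControl replicate 1 or shSLC1A5 replicate 3 was dropped (edgeR adjusted p = 0.0710 and 0.0502), and NT5C without shSLC1A5 replicate 1 (adjusted p = 0.0562).

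Of 18 S phase genes 11 rose and 1 fell, with a median of 0.11, where 20.2% of all genes rose and 19.0% fell. After the correction 9 rose and 1 fell, with a median of 0.087, where 11.6% of all genes rose and 14.7% fell. Without shSLC1A5 replicate 1, the library with the most neutrophil transcripts, 9 rose and 0 fell. With the replicate block and the correction together, 7 rose and 1 fell. The gene that fell, named after its values were seen, was CDC6 (-0.096) before the correction and FEN1 (-0.085) after it. CDC6 missed the threshold when shControl 2, shControl 3, shSLC1A5 1 or shSLC1A5 3 was dropped (edgeR adjusted p = 0.0993, 0.0620, 0.0919 and 0.0932). MCM2, a subunit of the replicative helicase, rose from 24.6 ± 0.425 to 31.9 ± 0.508 FPKM (SD, n = 3; log2 fold change 0.36, edgeR adjusted p = 2.73e-06), and by 0.21 after the correction. The transcription factor E2F2 rose by 0.47 and LIG1, a DNA ligase, by 0.27, or by 0.32 and 0.15 after the correction. E2F1 rose by 0.27 and was at 0.043 (edgeR adjusted p = 0.379) after the correction. In bulk RNA a larger or smaller share of cells in S phase cannot be told apart from more or less RNA per cell.

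**Figure D5:**
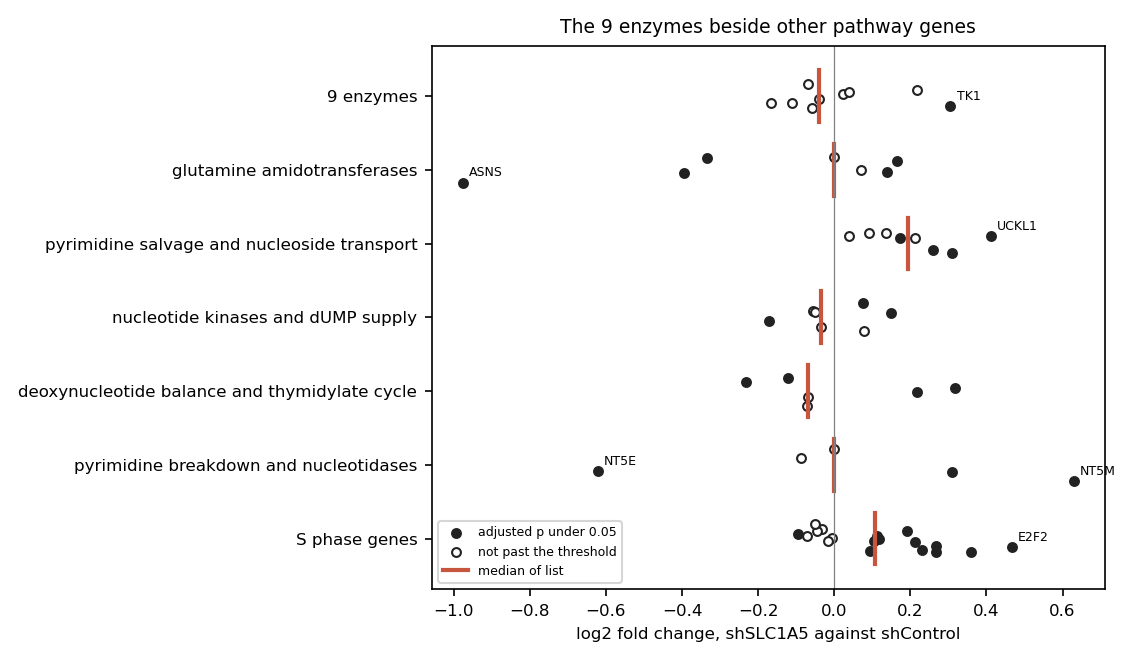
Log2 fold change of the 9 enzymes and of the tested genes in 6 neighbouring lists, shSLC1A5 against shControl; each point is a gene, filled where the edgeR adjusted p is under 0.05, red bars are list medians, and the vertical scatter within a list carries no value. TK1 is the only filled point among the 9 enzymes, while 11 of 18 S phase genes rose and ASNS lies at -0.98.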

How the data were processed

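RNA captured on oligo(dT) was sequenced in 6 T98G libraries, 3 shControl and 3 shSLC1A5. The submitters' processing notes name fastp, HISAT2 and StringTie. Versions, build, strand setting and the treatment of multi-mapping reads: not given in the sources used here. The authors deposited 1 table with, per the file headers, a count and an FPKM value for every gene and library, and 0 value columns were left unmapped. GENCODE 29 holds 34674 of the 35750 IDs, at overlapping GRCh38 positions for 99.97% of them, and coordinates are on GRCh38. Replicate pairs differed by more than counting noise (chi-square per gene 9.82 to 16.7).

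Counts were tested with edgeR 4.0.16 (R 4.3.3; TMM scaling, quasi-likelihood, group as the only term) in genes averaging 1 FPKM or more, with Benjamini-Hochberg adjustment over all of them and a threshold of 0.05. The standard error is the fold change over the square root of F, and 95% intervals are unadjusted. The biological coefficient of variation was 0.0982. The GC-and-length correction took offsets from a loess curve (span 0.3) per library on the longest GENCODE 29 transcript, with values for 99.7% of tested genes. FPKM ratios were compared by exact permutation. Alternatives used DESeq2 1.42.0, limma 3.58.1, other scalings and filters, a replicate block, and each library left out.

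The 9 genes, the lists and the alternatives were chosen with earlier results of these data known, and the scale per kilobase of the longest transcript was added later. Named genes are the 9, SLC1A5 and up to 4 called genes per list by size of change, except those said to be named after their values were seen. Patterns alike were sought only among the 9 and the lists. Some genes that the rule would name are counted in their lists but not reported here.

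In data simulated for shSLC1A5 against shControl (11800 genes, 200 of them changed) the test found 46% of changes of 0.3 and 80% of changes of 0.6 on the log2 scale, and called 19 of 11600 unchanged genes. With a simulated GC trend, unchanged genes called numbered 4602 uncorrected and 6 corrected. That trend was linear in GC content, while the trend in the data was nearly flat over the lowest deciles. It was removed with the same GC values that had made it, so both counts follow from the setting. What share of the calls in the data follows GC content was not tested.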

Additional observations from a re-analysis of the deposited data

How the results depend on the processing

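TK1 stayed higher and past the threshold in all alternatives run, while the number of enzymes called moved from 1 to 3 with quantile normalization in limma, with the GC-and-length correction and with that correction plus the replicate block, to 2 with a mean FPKM of at least 5 (which leaves out DHODH and CTPS2), and to between 1 and 2 when single libraries were left out. RRM2 passed at 0.068 with quantile normalization, 0.056 with the FPKM minimum of 5, and 0.089 with the correction, with or without the block. UMPS passed at -0.12 with quantile normalization. CAD passed at -0.21 with the correction, with or without the block, and RRM1 turned to 0.027 in both of these fits. NME2 turned to -0.087 with the correction and to -0.086 with the block added. The log2 level of RRM2 relative to RRM1 in shControl was -0.74 in FPKM and turned to 0.16 per kilobase of the longest transcript. The cause was not tested.

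When single libraries were left out, log2 fold changes ran from 0.15 to 0.31 for DHODH, from -0.13 to -0.083 for UMPS, from -0.096 to -0.040 for CTPS1 and from -0.0020 to 0.069 for TYMS, and the difference in the TK1 to TK2 log2 ratio ran from -0.054 to 0.041. Genes called numbered 4641, 3867 to 4082 with a library left out, and 2998 with the replicate block and the correction together. The labels do not say whether replicate numbers pair the libraries. Same-numbered libraries had correlations of -0.15, 0.036 and -0.034, and 1 of 6 libraries correlated best with its own number. With 3 libraries per group these values cannot settle whether cultures were paired. With the replicate block alone 4470 genes and 1 of the 9 enzymes were called, and TK1 was at 0.30. Counts of 665 to 781 for CTPS2 and 896 to 1319 for DHODH gave standard errors of 0.096 and 0.097, the widest intervals of the 9.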

Other observations

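The deposited table annotates 57 genes to the KEGG pathway of pyrimidine metabolism, a set chosen after the values were seen. All 9 enzymes are in it, and 45 of its genes were tested. Of the 45, 13 rose and 4 fell (median log2 fold change 0.020), against 20.2% and 19.0% of all genes tested. With the GC-and-length correction 8 rose and 6 fell (median 0.034), against 11.6% and 14.7% of all genes tested. Members outside the lists above include nucleoside diphosphate kinases. NME4, the mitochondrial form, rose from 13.7 to 18.4 mean FPKM (log2 fold change 0.41, edgeR adjusted p = 2.91e-05), and by 0.25 after the correction. NME3 rose by 0.47 and was at 0.20 (edgeR adjusted p = 0.167) after the correction. NME7 fell by 0.23 and was at -0.15 (adjusted p = 0.210) after it, and it missed the threshold when shControl 1, shControl 2, shSLC1A5 2 or shSLC1A5 3 was dropped (edgeR adjusted p = 0.0904, 0.161, 0.116 and 0.149). PNP, purine nucleoside phosphorylase, fell from 9.18 to 8.09 mean FPKM, or by 0.20 on the log2 scale, and by 0.13 after the correction (edgeR adjusted p = 0.0400, or 0.0674 with the replicate block added).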
